A study of Mus musculus with 6 samples.

Results

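The 10 genes described here encode chemokines made by macrophages, namely the CC chemokines Ccl2, Ccl3, Ccl4, Ccl5, Ccl6, Ccl7, Ccl9 and Ccl24 and the CXC chemokines Cxcl2 and Cxcl16. They were chosen by name as members of this family and make up 10 of the 55487 gene identifiers measured. All 10 matched 1 identifier each in GENCODE M21 (GRCm38). RNA-seq was done on J774 cells, a mouse macrophage line, transfected by liposome with a control siRNA or an NCOA4 siRNA. NCOA4 is the autophagy receptor that carries the iron store ferritin to the lysosome, and the question asked of these libraries was how the macrophage transcriptome responds when it is depleted. There were 3 biological replicates per siRNA, or 6 libraries, named here control 1 to 3 and NCOA4 siRNA 1 to 3. The NCOA4 group differs from the control group by 1 siRNA sequence and comes from 1 cell line, so an effect of losing NCOA4 and an effect of that siRNA sequence cannot be told apart in this design. No untransfected cells were part of the 6 libraries.

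Chemokines are small secreted proteins that draw leukocytes along a gradient by binding G protein-coupled receptors. The CC and CXC families are named for the spacing of their first cysteines. Ccl3 and Ccl4 attract monocytes, natural killer cells and T cells, and Ccl3 binds CCR1. Ccl2 and Ccl7 are ligands of CCR2 and bring monocytes out of the bone marrow. Ccl6 and Ccl9 are rodent CC chemokines that bind CCR1, and Ccl24 binds CCR3 and attracts eosinophils. Cxcl2 recruits neutrophils through CXCR2, while Cxcl16 is held at the cell surface and binds CXCR6. In macrophages, many of these genes are induced through NF-kB and their mRNAs are short-lived, in part because of AU-rich sequences in their 3′ untranslated regions (3′ UTRs).

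Of the 10 genes, 7 lie in 2 clusters on chromosome 11. In GRCm38, Ccl2 (82035571 to 82037453, plus strand) and Ccl7 (82045712 to 82047525, plus strand) start 10.1 kb apart. Further along the chromosome are Ccl5 (83525778 to 83530518), Ccl9 (83572919 to 83578636), Ccl6 (83587882 to 83593087) and Ccl3 (83647844 to 83649355), all on the minus strand, and then Ccl4 (83662584 to 83664683) on the plus strand. This second cluster spans 139 kb, and Ccl3 and Ccl4 point away from each other with 13.2 kb between their starts. Cxcl16 is also on chromosome 11 (70453983 to 70459984, minus strand), while Ccl24 (135569937 to 135573049, minus strand) and Cxcl2 (90903871 to 90905938, plus strand) are on chromosome 5.

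Promoter sequences, which cover 250 bases before and 50 bases after the transcription start, were held by RefSeq (GRCm38.p6) for 4 of the 10 genes, namely Ccl3, Ccl6, Ccl9 and Cxcl2. Those of Ccl3, whose transcript fell, and of Cxcl2, whose transcript did not pass the test, are printed here, 5′ to 3′, from chr11:83649329-83649628 (minus strand) and chr5:90903649-90903948 (plus strand). Capitals mark matches on either strand to GGGANNTTC, a short form of the NF-kB site.
Ccl3 promoter: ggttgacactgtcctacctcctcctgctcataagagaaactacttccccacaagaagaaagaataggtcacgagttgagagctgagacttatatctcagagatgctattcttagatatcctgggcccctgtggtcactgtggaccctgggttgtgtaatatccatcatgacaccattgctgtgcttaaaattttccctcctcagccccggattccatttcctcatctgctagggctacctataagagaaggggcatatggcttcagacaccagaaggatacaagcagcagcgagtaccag
Cxcl2 promoter: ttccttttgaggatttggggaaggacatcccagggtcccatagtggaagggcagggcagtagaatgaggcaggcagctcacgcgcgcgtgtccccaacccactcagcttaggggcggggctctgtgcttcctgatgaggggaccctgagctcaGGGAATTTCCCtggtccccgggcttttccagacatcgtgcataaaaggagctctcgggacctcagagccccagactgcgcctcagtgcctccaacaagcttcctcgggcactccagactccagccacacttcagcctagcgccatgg
Cxcl2 had matches starting 97 and 95 bases before its start. They lie on opposite strands and overlap, so they form 1 stretch. No match was found in the windows of Ccl3, Ccl6 and Ccl9, and 3.94% of all 32851 promoter windows of this length hold one. The AP-1 sequence TGANTCA (7.81% of all windows) was found in Ccl9, starting 53 bases before its start, and in none of the other 3 windows. The STAT sequence TTCNNNGAA (8.30% of all windows) was found in none of the 4. These matches describe the letters of the windows and show nothing about binding.

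The AU-rich pentamer ATTTA was counted in the 3′ UTR of the longest protein-coding GENCODE transcript of each gene. Ccl3 had 5 copies in 409 bases, Ccl7 had 2 in 435 bases, Ccl4 had 2 in 302 bases and Ccl2 had 1 in 275 bases. Among tested genes whose 3′ UTR had between 100 and 600 bases, 37.8% of 2999 had at least 1 copy. The longer 3′ UTR of Cxcl2 had 11 copies in 1494 bases, including 4 of the nonamer TTATTTATT, which occurs in 7.92% of the 3′ UTRs of 10767 tested genes. Ccl6 had 4 copies in 943 bases, Ccl9 had 5 in 2465 bases and Cxcl16 had 2 in 1421 bases. Over 3′ UTRs of all lengths, 68.8% of the 10767 tested genes had at least 1 copy of ATTTA. Ccl5 and Ccl24 had 0 copies, in 199 and 858 bases. For Ccl3, Ccl2 and Ccl7, which are among the 4 chemokines with the lowest log2 fold changes, the first window of 30 bases with the most copies is shown here as DNA letters of the transcript, with ATTTA in capitals. Ccl3 is read from chr11:83648075-83648104 (minus strand), Ccl2 from chr11:82037206-82037235 and Ccl7 from chr11:82047255-82047284 (plus strand for both).
Ccl3 window: ttgaaattttATTTAATTTAatcctattgg
Ccl2 window: aatattaaacttATTTAacttattgatgtt
Ccl7 window: attaatatttttATTTAattagccatgtac
In the Ccl3 window both copies lie directly side by side. The printed windows were picked with the fold changes known. Windows found the same way but not printed held 1 copy in Ccl4, 2 in Ccl9, 2 in Ccl6, 1 in Cxcl16 and 4 in Cxcl2. Of these genes, Ccl6 and Cxcl2 did not pass the test.

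Levels are given in TPM, the reads of a gene per base of its length, scaled so that each library sums to 1000000. Whole reads rebuilt from TPM and gene length numbered 15502131 to 18282107 per library. Ncoa4 was at 21.6 ± 1.57 TPM in control and 9.04 ± 0.533 TPM in NCOA4 siRNA libraries (SD, n = 3 each), or 41.9% of control. Control 1 stood apart from the other 2 controls, with a chi-square per gene of 11.6 and 11.7 against them, while the other replicate pairs had 1.96 to 3.60, where counting noise alone gives about 1. For this reason values without control 1 are given beside the main results of the tested members and of their ratios. All 8 macrophage markers were present, with Lyz2, Cd68 and Csf1r at no less than 4683, 1507 and 318 TPM. Their summed level was 7295 to 7446 TPM with control siRNA and 7760 to 7910 TPM with NCOA4 siRNA, and 2 of them, Adgre1 and Fcgr1, were called higher. The T cell, B cell, fibroblast, epithelial and erythroid markers each stayed at or below 0.340 TPM when summed. The neutrophil marker S100a8 was at 15.3 to 25.2 TPM, whereas Ly6g, S100a9 and Mpo were at 0 in every library. Dendritic cell and endothelial markers summed to 1.90 to 3.01 TPM and 0.913 to 1.61 TPM. The part of these markers in the results was not tested. Expression was measured per library, so fewer expressing cells and less RNA per cell cannot be told apart.

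With NCOA4 siRNA, Ccl3 and Ccl4 fell to 51.8% and 52.4% of their control means and Ccl24 rose to 180%. The groups were compared with limma (a linear model with moderated variances) on log2(TPM + 0.5) for the 13829 genes whose mean reached 0.5 TPM. Genes were called when the Benjamini-Hochberg adjusted p was under 0.05 and the fold change was above 1.5. Of the 10 chemokines, 2 were called lower and 1 was called higher, while 0.318% of all tested genes were called lower and 0.861% higher (1.18% in either direction). Another 3, Ccl2, Ccl7 and Ccl9, were lower at an adjusted p under 0.05 but with a smaller fold change. With these, 5 of the 10 were lower at that adjusted p, against 2.31% of all tested genes. The number at that adjusted p in either direction was 6, where 750 of all 13829 tested genes reached it. Among the chemokines it was 3 without NCOA4 siRNA 2 or without NCOA4 siRNA 3. Ccl5, Ccl6 and Cxcl2 did not pass the test. Cxcl16 was below the filter and was not tested. The median log2 fold change was -0.26 over the 9 tested chemokines and 0.03 over all tested genes. The same 3 calls were made under each of the 15 alternative settings, which include leaving out each library in turn. The control and NCOA4 siRNA libraries did not overlap for 5 of the 9 tested genes in the lower direction (Ccl2, Ccl3, Ccl4, Ccl7 and Ccl9), for the untested Cxcl16, also lower, and for 1 gene in the higher direction (Ccl24). The share of tested genes without overlap was 11.8% lower and 16.6% higher.

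**Figure D1:**
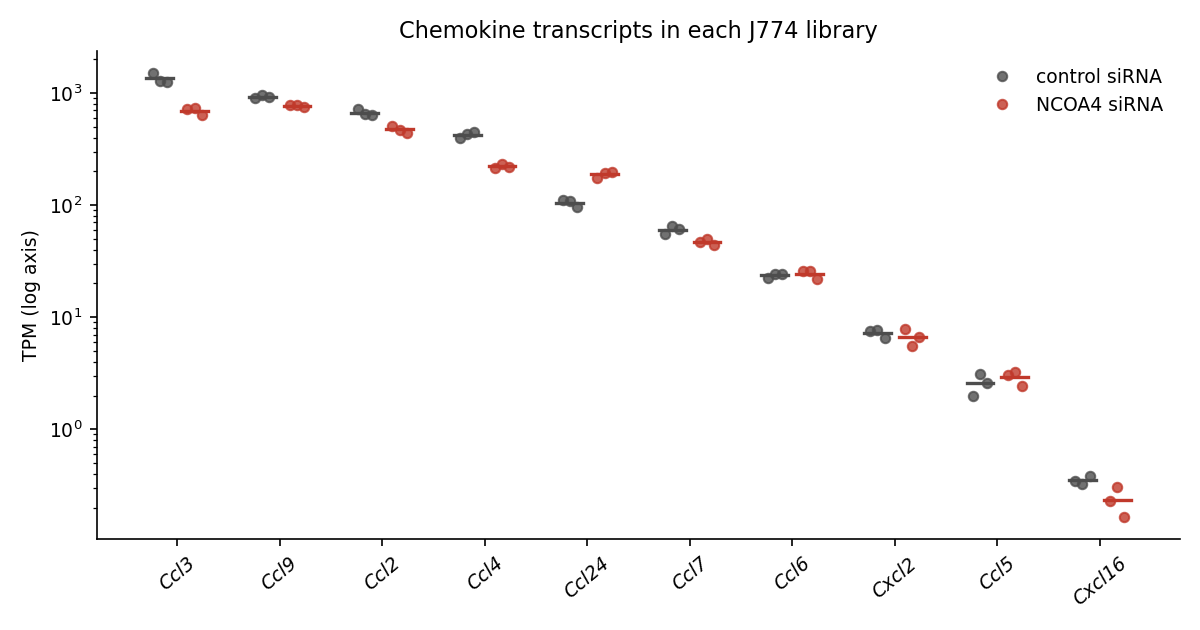
TPM of each of the 10 chemokine transcripts (log axis) in the 3 control and 3 NCOA4 siRNA libraries, ordered by mean level. Points are libraries and bars are group means. Ccl3 and Ccl4 are clearly lower and Ccl24 clearly higher with NCOA4 siRNA, while the points of Ccl6, Cxcl2 and Ccl5 overlap.

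Ccl3 was the most abundant of the 10 transcripts in every control library, and it ranked 118 among all genes by the mean TPM over all 6 libraries. It was at 1510, 1278 and 1256 TPM in control 1 to 3 and at 719, 739 and 635 TPM in NCOA4 siRNA 1 to 3. In reads, the controls had 6644, 5931 and 5014 and the NCOA4 siRNA libraries 3197, 3086 and 2936. Control 1 held the highest value, and the lowest control was still well above the highest NCOA4 siRNA library. With NCOA4 siRNA the mean of 1348 ± 141 TPM fell to 698 ± 55.2 TPM (SD, n = 3 each). The log2 difference was -0.95 (standard error, SE, 0.089, 95% interval -1.16 to -0.74, limma Benjamini-Hochberg adjusted p = 0.00391). Without control 1 the log2 fold change was -0.86. Permuting the libraries over all 20 arrangements (exact, two-sided) gave p = 0.10, the smallest that 3 libraries against 3 allow.

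Ccl4, which like Ccl3 attracts monocytes and T cells, was at 397, 429 and 449 TPM in control 1 to 3 and at 215, 233 and 220 TPM in NCOA4 siRNA 1 to 3. Here control 1 was the lowest of the controls, unlike for Ccl3. The groups were far apart relative to the spread within them, with means of 425 ± 25.9 and 222 ± 9.30 TPM (SD, n = 3 each). The log2 fold change was -0.93 (SE 0.056, 95% interval -1.07 to -0.80, limma Benjamini-Hochberg adjusted p = 0.00127), and -0.98 without control 1. Across the 15 alternatives, the log2 fold change of Ccl3 was between -1.01 and -0.86 and that of Ccl4 between -0.99 and -0.89. When the 9537 tested genes averaging 100 reads or more were ranked, a limit set with the values in view, Ccl3 had the 5th and Ccl4 the 7th lowest log2 fold change.

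The size of the change could be compared between both genes within each library, which does not depend on how libraries are scaled. There were 3.80, 2.98 and 2.80 Ccl3 transcripts per Ccl4 transcript in control 1 to 3, and 3.35, 3.18 and 2.89 in NCOA4 siRNA 1 to 3. These ranges overlapped. The mean log2 ratio was 1.66 ± 0.233 and 1.65 ± 0.108 (SD, n = 3 each), a difference of -0.02 (exact two-sided permutation test, p = 0.90, and 0.90 adjusted over 6 pairs). Leaving out single libraries moved this difference between -0.10 and 0.12, and it was 0.12 without control 1. A p above the threshold does not show that both genes responded alike.

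Ccl2 and Ccl7, the CCR2 ligands, were lower at an adjusted p under 0.05 with fold changes under 1.5. Ccl2 was at 722, 649 and 634 TPM in control 1 to 3 and at 510, 468 and 441 TPM in NCOA4 siRNA 1 to 3. The groups did not overlap, with means of 668 ± 46.9 and 473 ± 35.0 TPM (SD, n = 3 each), which is 70.8% of the control level. The log2 fold change of -0.50 (SE 0.072, 95% interval -0.67 to -0.33) had a limma Benjamini-Hochberg adjusted p of 0.0143 and was -0.44 without control 1. This adjusted p rose to 0.0840 without NCOA4 siRNA 2 and to 0.0652 without NCOA4 siRNA 3, and ranged from 0.000138 to 0.0840 over the alternatives.

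Ccl7, the neighbour of Ccl2, was less abundant, at 54.8, 65.3 and 61.3 TPM in control 1 to 3 and at 47.3, 49.7 and 43.9 TPM in NCOA4 siRNA 1 to 3. All NCOA4 siRNA libraries were lower than all controls, with means of 60.5 ± 5.31 and 47.0 ± 2.95 TPM (SD, n = 3 each). Its log2 fold change was -0.36 (SE 0.077, 95% interval -0.54 to -0.18, limma Benjamini-Hochberg adjusted p = 0.0473). This was close to the threshold, and the adjusted p was under 0.05 in 7 of 15 alternatives, including 0.0228 without control 1, within a range of 0.0170 to 0.159. The Ccl2 to Ccl7 ratio did not separate the groups, with a log2 difference of -0.14 (exact two-sided permutation test, p = 0.50, and 0.60 adjusted over 6 pairs). Without control 1 this difference was -0.01.

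Ccl9 and Ccl6 are neighbouring CCR1 ligands whose starts are 14.5 kb apart. Ccl9, which followed Ccl3 in every control library and was the most abundant of the 10 in every NCOA4 siRNA library, was at 910, 954 and 914 TPM in control 1 to 3 and at 783, 781 and 748 TPM in NCOA4 siRNA 1 to 3. Its replicates were tight, and the groups did not overlap. The means were 926 ± 24.1 and 771 ± 19.8 TPM (SD, n = 3 each), or 83.2% of control, with a log2 fold change of -0.26 (SE 0.041, 95% interval -0.36 to -0.17, limma Benjamini-Hochberg adjusted p = 0.0178). The log2 fold change was -0.28 without control 1. Without NCOA4 siRNA 1, 2 or 3 the adjusted p was 0.0853, 0.0921 or 0.0931, within a range of 0.000574 to 0.0931 over the alternatives. Of the 50-base words of Ccl9 transcripts, 1.97% also occur in other genes.

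Ccl6 was at 22.2, 24.4 and 24.1 TPM in control 1 to 3 and at 25.9, 25.6 and 21.9 TPM in NCOA4 siRNA 1 to 3. The groups overlapped, NCOA4 siRNA 3 being the lowest of all 6 libraries. Its log2 fold change was 0.05 with a 95% interval of -0.14 to 0.24 (limma Benjamini-Hochberg adjusted p = 0.767), and 0.01 without control 1. The direction was reversed, at -0.01, when libraries were centred on their median. Within libraries, the Ccl6 to Ccl9 ratio was 0.0244, 0.0255 and 0.0264 in control 1 to 3 and 0.0331, 0.0327 and 0.0293 in NCOA4 siRNA 1 to 3. It was higher in all 3 NCOA4 siRNA libraries, by 0.31 on the log2 scale (exact two-sided permutation test, p = 0.10, and 0.15 adjusted over 6 pairs). Without control 1 the difference was 0.28. The smallest p this design allows is 0.10, so the test could not reach 0.05.

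**Figure D2:**
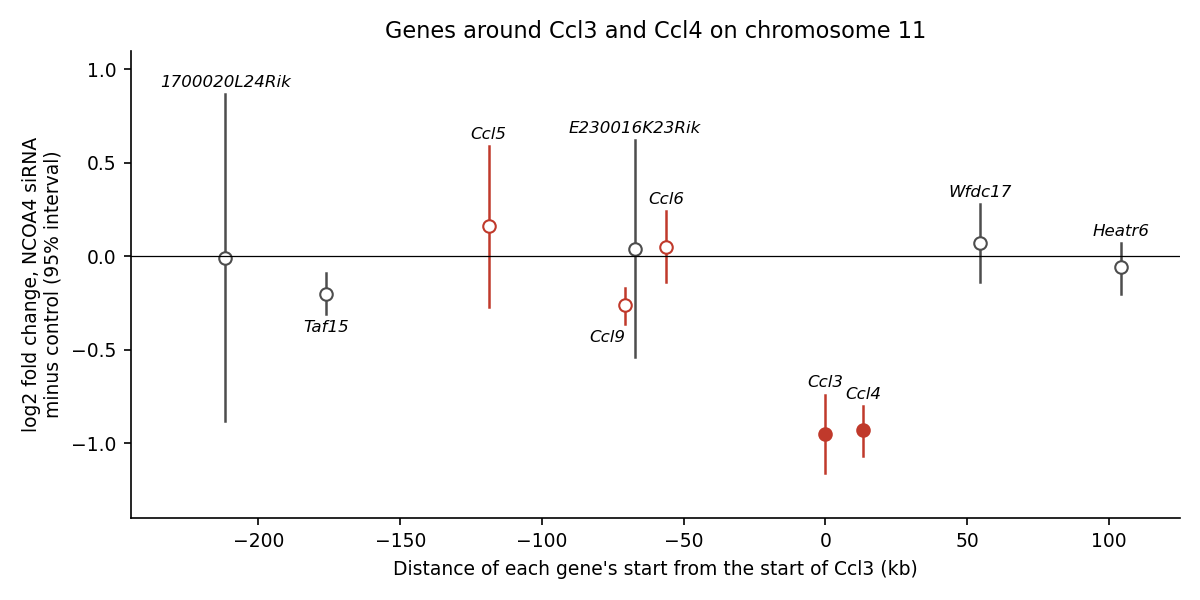
Log2 fold change with its 95% interval for the tested genes around Ccl3, by the distance of each gene's start from that of Ccl3 in kb. Chemokines are red, other genes grey, and filled points were called. Ccl3 and Ccl4 lie at about -0.9, while all other genes lie between -0.26 and 0.16.

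The other genes of this stretch of chromosome 11 are shown in the plot by distance from Ccl3. Beyond Ccl4, the next tested gene, Wfdc17, was at 58.9 ± 7.19 TPM in control and 61.7 ± 3.14 TPM in NCOA4 siRNA libraries (SD, n = 3 each), and its log2 fold change was 0.07 (95% interval -0.14 to 0.28). At the other end of the cluster Taf15 had a log2 fold change of -0.20 (95% interval -0.31 to -0.09, limma Benjamini-Hochberg adjusted p = 0.0554). Of the 10 tested genes plotted there, Ccl3 and Ccl4 were the only ones called. E230016K23Rik, an antisense transcript that overlaps Ccl6, was at no more than 0.824 TPM.

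Ccl5, a ligand of CCR1 and CCR3, was at a low level in these cells. It was at 2.00, 3.09 and 2.60 TPM in control 1 to 3 and at 3.05, 3.25 and 2.42 TPM in NCOA4 siRNA 1 to 3, on 11 to 18 reads per library. The groups overlapped, and the log2 fold change was 0.16 with a 95% interval of -0.27 to 0.59 (limma Benjamini-Hochberg adjusted p = 0.655). It was 0.02 without control 1. The fall of Ccl3 lies outside that interval. The Ccl5 to Ccl3 ratio was higher in all 3 NCOA4 siRNA libraries than in any control, by 1.14 on the log2 scale (exact two-sided permutation test, p = 0.10, and 0.15 adjusted over 6 pairs). Without control 1 the difference was 0.89. This ratio carries the fall of Ccl3 given above and is not separate evidence.

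Ccl24 was the member that moved the other way. It was at 110, 109 and 96.3 TPM in control 1 to 3 and at 175, 194 and 197 TPM in NCOA4 siRNA 1 to 3. Every NCOA4 siRNA library was above every control, and the mean rose from 105 ± 7.57 to 189 ± 12.1 TPM (SD, n = 3 each). The log2 fold change was 0.84 (SE 0.070, 95% interval 0.68 to 1.01, limma Benjamini-Hochberg adjusted p = 0.00234), and 0.88 without control 1. Its range over the 15 alternatives was 0.78 to 0.90. There were 0.0728 to 0.0851 Ccl24 transcripts per Ccl3 transcript in the controls and 0.243 to 0.310 with NCOA4 siRNA. The log2 difference was 1.79 (exact two-sided permutation test, p = 0.10, and 0.15 adjusted over 6 pairs), and 1.74 without control 1. This ratio joins the rise of Ccl24 to the fall of Ccl3 and is not separate evidence.

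The chemokine gene next to Ccl24 is Ccl26. Together, Ccl26 and Ccl24 span 12.6 kb of chromosome 5. Ccl26 was at 1.85, 1.76 and 3.40 TPM in control 1 to 3 and at 4.88, 3.25 and 5.29 TPM in NCOA4 siRNA 1 to 3. The groups overlapped, and its values rest on 11 reads in all controls and 22 reads in all NCOA4 siRNA libraries. The log2 fold change of 0.83 (95% interval 0.21 to 1.46) had a limma Benjamini-Hochberg adjusted p of 0.133. The ratio of reads per depth was 1.98 with an exact 95% interval of 0.921 to 4.52, which covers counting error only.

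Of the CXC members, Cxcl2 was at 7.49, 7.74 and 6.49 TPM in control 1 to 3 and at 7.83, 5.59 and 6.65 TPM in NCOA4 siRNA 1 to 3. Both the highest and the lowest value were in the NCOA4 siRNA group. The log2 fold change was -0.11 with a 95% interval of -0.43 to 0.20 (limma Benjamini-Hochberg adjusted p = 0.665), and -0.09 without control 1. Of the 50-base words of Cxcl2 transcripts, 5.84% also occur in Cxcl3, so a small part of its reads could have been shared with that gene, which was at no more than 0.472 TPM. The Cxcl2 to Ccl3 ratio was higher in all 3 NCOA4 siRNA libraries, by 0.82 on the log2 scale (exact two-sided permutation test, p = 0.10, and 0.15 adjusted over 6 pairs). Without control 1 the difference was 0.77. Like the other ratios over Ccl3, it carries the fall of that gene and is not separate evidence.

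Cxcl16 was barely detected. It was at 0.346, 0.328 and 0.381 TPM in control 1 to 3 and at 0.228, 0.304 and 0.165 TPM in NCOA4 siRNA 1 to 3, which is 6, 6 and 6 reads and 4, 5 and 3 reads. Although the NCOA4 siRNA values were all below the controls, the summed reads of 12 against 18 gave a ratio per depth of 0.660 with an exact 95% interval of 0.290 to 1.45, which covers counting error only. The opposite-strand gene Zmynd15, which overlaps Cxcl16, was at no more than 0.0833 TPM.

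**Figure D3:**
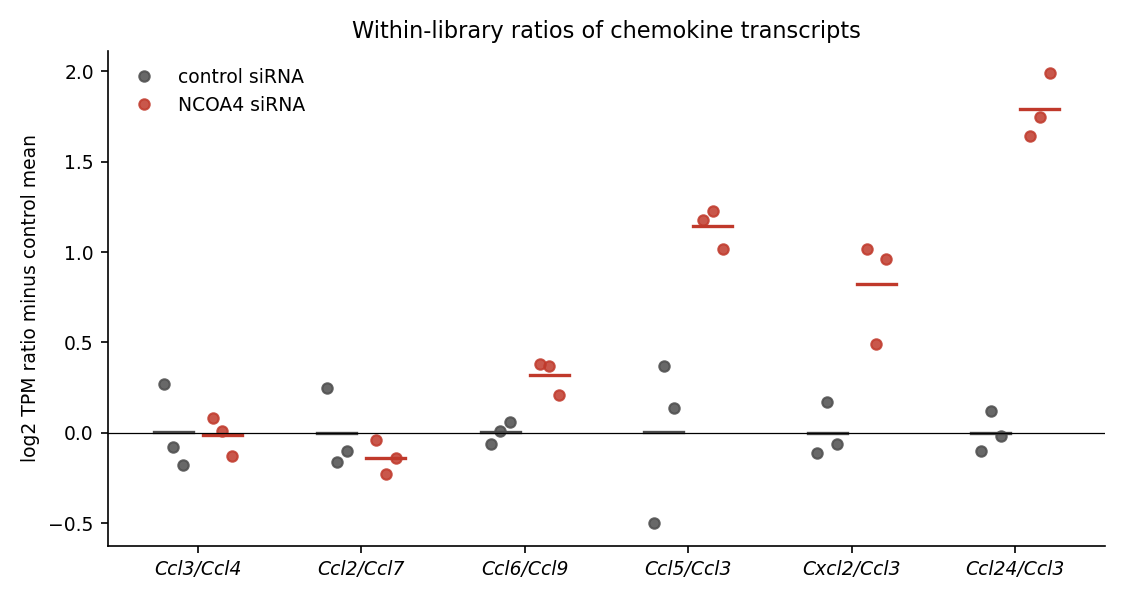
Within-library log2 TPM ratios for 6 pairs of chemokine transcripts, each minus the mean of the controls. Points are libraries and bars are group means. The Ccl3/Ccl4 and Ccl2/Ccl7 ratios overlap between the groups, while the other 4 ratios are higher in all NCOA4 siRNA libraries, most of all Ccl24/Ccl3. Ratios over Ccl3 carry the fall of that gene.

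Summed over the 10 transcripts, the level was 3737, 3518 and 3444 TPM in control 1 to 3 and 2486, 2500 and 2316 TPM in NCOA4 siRNA 1 to 3. The mean was 3566 ± 152 and 2434 ± 103 TPM (SD, n = 3 each), or 68.3% of control, and no test was made on this sum. Ccl3 alone made up 57.4% of the difference, Ccl4 17.9%, Ccl2 17.2% and Ccl9 13.7%, which together exceed the whole because Ccl24 rose. The make-up of the sum differed as well. Ccl3 was 36.3% to 40.4% of it in the controls and 27.4% to 29.6% with NCOA4 siRNA, so that Ccl9, at 31.2% to 32.3%, was the largest part there. Ccl24 was 2.80% to 3.09% of the sum in the controls and 7.03% to 8.50% with NCOA4 siRNA.

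**Figure D4:**
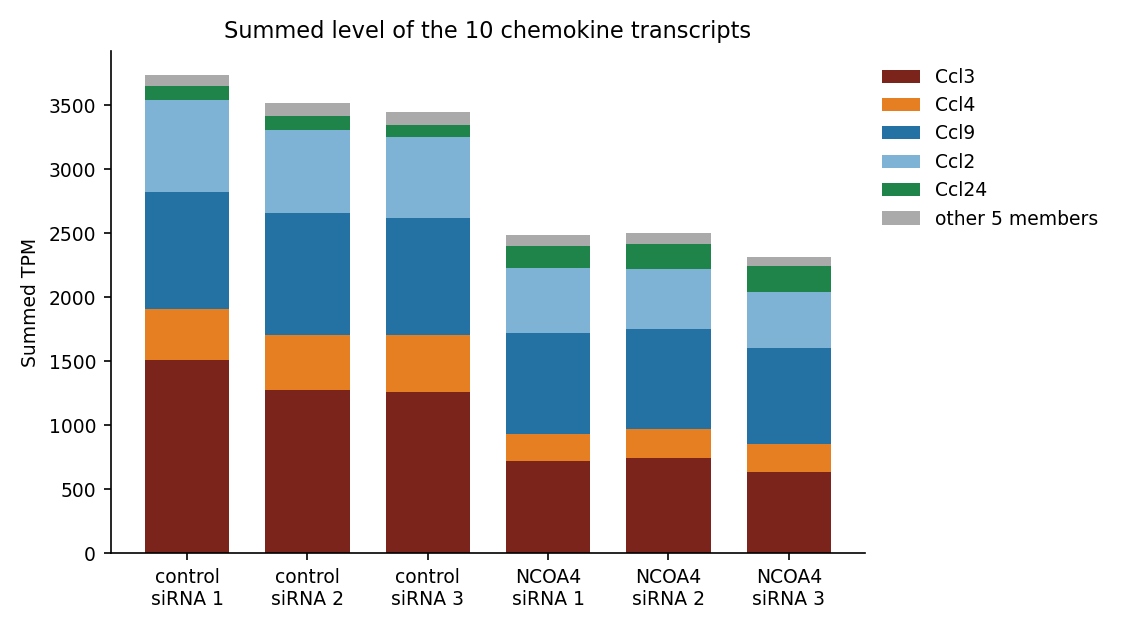
Summed TPM of the 10 chemokine transcripts in each library, stacked by gene. The 3 control bars reach 3444 to 3737 TPM and the 3 NCOA4 siRNA bars 2316 to 2500 TPM, with Ccl3 as the largest part of each control bar and Ccl9 as the largest part of each NCOA4 siRNA bar.

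The rest of the family was read from a list of 28 other mouse chemokine genes, of which 26 matched 1 identifier. For 14 of these 26, including Ccl8 and Ccl11 of the Ccl2 cluster and Cxcl1, Cxcl9 and Cxcl12, the level was 0 in every library. Of the 8 that passed the filter, 0 were called by limma, against 1.18% of all tested genes. An adjusted p under 0.05 was found for 1, Pf4, and for 750 of all 13829 tested genes. There were 3 with an unadjusted p under 0.05, a level reached by 21.6% of all tested genes. With limma-voom on rebuilt reads 1, Ppbp, was called, as were 217 of all 13609 genes tested that way. In these 8 genes 5 log2 fold changes were above 0 and 3 below. Pf4, a CXC chemokine best known from platelets, was at a level near that of Ccl9, at 645, 776 and 781 TPM in control 1 to 3 and at 943, 925 and 933 TPM in NCOA4 siRNA 1 to 3. The groups did not overlap, and control 1 was the lowest library. Its log2 fold change was 0.35 (SE 0.077, limma Benjamini-Hochberg adjusted p = 0.0489). Ppbp, the platelet chemokine gene beside Pf4, had 2 reads in all controls and 22 in all NCOA4 siRNA libraries, a ratio per depth of 10.9 with an exact 95% interval of 2.68 to 95.6 (limma Benjamini-Hochberg adjusted p = 0.0515). This interval covers counting error only. Cxcl14 was at 73.9 ± 3.17 and 69.8 ± 2.62 TPM and Ccl12, of the Ccl2 cluster, at 10.5 ± 3.43 and 11.4 ± 1.68 TPM (SD, n = 3 each). The log2 fold changes of Ccl25, Ccl28 and Cxcl10 were 0.11, -0.32 and -0.04, each with an interval that includes 0.

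**Figure D5:**
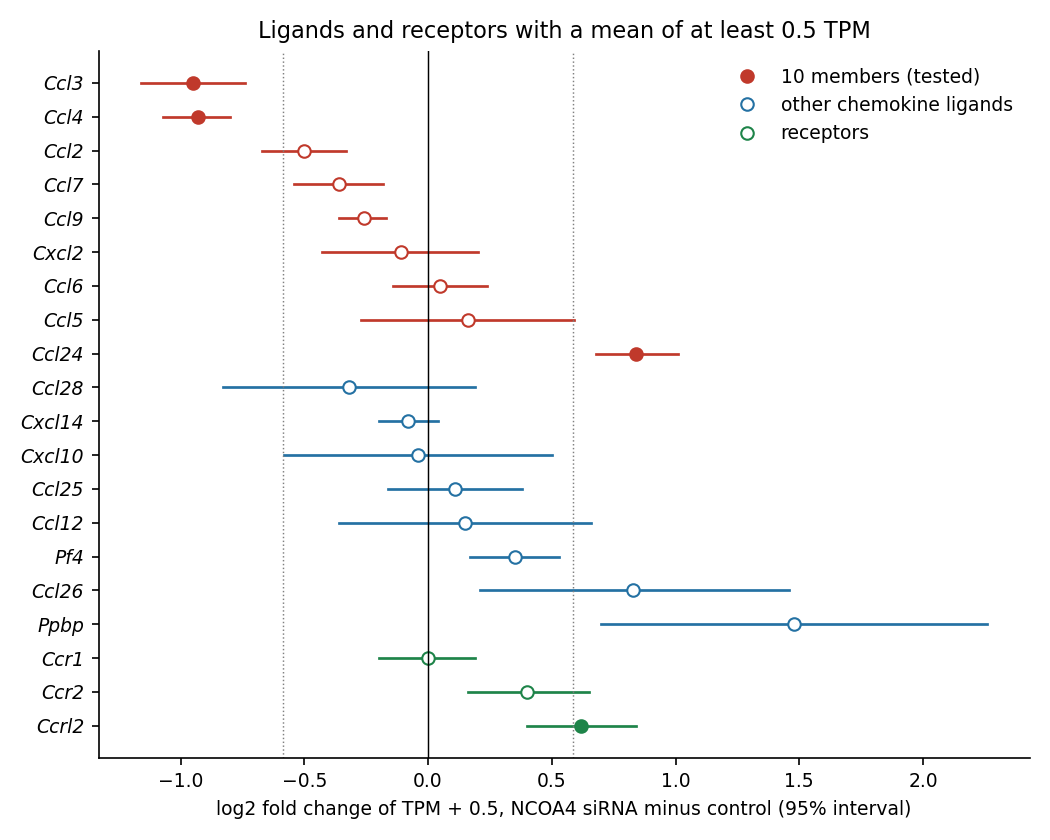
Log2 fold change of TPM + 0.5 (NCOA4 siRNA minus control) with 95% intervals for the tested members, the other tested chemokine ligands and the tested receptors. Filled points were called, and dotted lines mark a fold change of 1.5. Ccl3 and Ccl4 are filled on the low side, and Ccl24 and Ccrl2 are filled on the high side.

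Few of the receptor genes listed for comparison were expressed by the same cells. Of 10 receptor genes, 3 passed the filter. Ccr1, the receptor of Ccl3, Ccl5, Ccl6 and Ccl9, was at 62.1 ± 4.98 TPM in control and 61.9 ± 5.62 TPM in NCOA4 siRNA libraries (SD, n = 3 each). Ccr2, the receptor of Ccl2 and Ccl7, was at 10.3 ± 1.19 and 13.8 ± 1.12 TPM, with a log2 fold change of 0.40 (limma Benjamini-Hochberg adjusted p = 0.0785). With limma-voom on rebuilt reads its adjusted p was under 0.05, and it was not called. Ccrl2, an atypical receptor that does not signal through G proteins, was called higher, at 4.09 ± 0.159 and 6.57 ± 0.493 TPM. Its log2 fold change was 0.62 (limma Benjamini-Hochberg adjusted p = 0.0158). Ccrl2 was the only one called of the 3 tested receptor genes, where 0.861% of all tested genes were called higher.

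Genes that act on chemokines or are induced with them were counted for comparison. Of 12 genes for the shedding and trimming of chemokines and the decay of their mRNAs, 11 were tested with limma. An adjusted p under 0.05 was found for 0 of them and for 750 of all 13829 tested genes. An unadjusted p under 0.05 was found for 5 (21.6% of all tested genes). With limma-voom on rebuilt reads 10 could be tested, and 2, Mmp12 and Zfp36l1, had an adjusted p under 0.05, as had 1485 of all 13609 genes. Zfp36 encodes a protein that binds AU-rich sequences and promotes mRNA decay. It was at 27.9 ± 0.760 TPM in control and 25.4 ± 0.423 TPM in NCOA4 siRNA libraries (SD, n = 3 each). Its relative Zfp36l1 was at 74.3 ± 8.81 and 88.6 ± 1.11 TPM. Their log2 fold changes were -0.13 and 0.26, with limma Benjamini-Hochberg adjusted p-values of 0.158 and 0.127. Zfp36l2, Elavl1, Zc3h12a and Rc3h1, from the same list, had log2 fold changes of -0.03, 0.03, 0.15 and 0.07. Of 18 inflammatory activation genes, 16 were tested with limma and 15 with limma-voom. By either, 0 were called, where limma called 1.18% of all tested genes. Of the 16, 8 had an unadjusted p under 0.05, against 21.6% of all tested genes. The groups did not overlap for 7 of the 16 in the higher and 2 in the lower direction, where all tested genes had 16.6% and 11.8%. Il1a, Irf1 and Cd80 were higher and Cd14 was lower at an adjusted p under 0.05, with log2 fold changes of 0.49, 0.54, 0.35 and -0.27. At that adjusted p, 430 of all 13829 tested genes were higher and 320 were lower. Elsewhere in the list, Nfkbia, Tnf, Icam1, Il1b and Nos2 had log2 fold changes of -0.04, -0.16, 0.10, 0.74 and 0.61. Their limma Benjamini-Hochberg adjusted p-values were 0.707, 0.168, 0.172, 0.155 and 0.17. Nfkbiz, Tnfaip3, Tnfaip2 and Ptgs2 had log2 fold changes of 0.04, -0.05, 0.09 and -0.10. Those of Saa3, Socs3 and Cd40 were 0.20, 0.18 and 0.14. These genes also had limma adjusted p-values above 0.05. Of 14 genes of the macrophage response to IL4, a cytokine known to induce Ccl24, 6 were tested and 2 were called, both higher, against 0.861% of all tested genes called higher. These were the mannose receptor gene Mrc1 and the receptor gene Il4ra, with log2 fold changes of 0.86 and 0.71. The other 4 did not pass the test, with log2 fold changes of 0.15 for Arg1, -0.16 for Clec10a, -0.16 for Mgl2 and -0.63 for Alox15, and the median of the 6 was -0.00. Retnla and Chil3, also IL4-induced in macrophages, were at 0 in every library.

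Over the 6 libraries, Ccl2 had the profile most like that of Ccl3 among the members, with a Pearson r of 0.984 on the log2 scale, followed by Ccl9 with 0.957, Ccl4 with 0.952 and Ccl7 with 0.849. Ccl24 had -0.949. Cxcl2, Ccl6 and Ccl5 had 0.362, -0.227 and -0.423. Among the 8509 other genes with a mean of at least 10 TPM, the 5 most like Ccl3 were Myo1e, Cs, S100a11, Cap1 and Tnfrsf26, with r from 0.993 to 0.997. Their log2 fold changes were smaller, from -0.45 for S100a11 to -0.05 for Cs. These values come from the same 6 libraries, which share their scaling and the group difference, and are given as a description.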

How the data were processed

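The rows of 10 chemokine genes were read from 6 RNA-seq libraries of J774 cells, 3 per siRNA. The authors deposited TPM per gene and library, made from TruSeq Stranded mRNA libraries, with no further scaling between libraries. The processing notes deposited by the authors name Trimmomatic 0.33, HISAT2 2.1.0, featureCounts, edgeR and mm10, which is GRCm38. The strand setting of the counting and the annotation are not given in the sources used here, so reads of a gene and its antisense partner cannot be told apart. Symbols and lengths came from GENCODE M21, which held 55227 of the 55487 identifiers. Whole reads were rebuilt from TPM and length for 98.5% of the 21096 genes above 0, to within 0.02 reads plus 1e-05 of the value. Depth was 15502131 to 18282107 such reads, and intervals on reads cover counting error only.

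limma 3.58.1 (R 4.3.3) was run with lmFit and eBayes with a trend on log2(TPM + 0.5), over the 13829 genes averaging 0.5 TPM or more, with Benjamini-Hochberg adjustment and no block. Fold changes are on this scale and understate changes of low genes. The authors used edgeR on raw counts, which were not used here. Single values and within-library ratios were tested with exact two-sided permutation tests, and the 6 ratio p-values were adjusted by the same method. Replicates are labelled biological, and p-values measure the spread between them. The paper does not state whether these replicates came from separate experiments. The script was tested on simulated reads with the same spread in all 6 libraries. That simulation held no outlying library such as control 1. The named genes are the 10 chemokines, Ncoa4, the tested genes of the 2 lists of other ligands and receptors, up to 4 called genes of the other 3 lists, and the 5 genes most like Ccl3, while other names were chosen after their values were seen. The members, lists and tests were chosen with earlier results of these data known. The 15 alternatives changed the pseudocount (1 or 0.1), the filter (none, or averages from 5 TPM), the scaling (median centring or quantile normalization) or the model (no trend, the replicate number as a block, limma-voom on rebuilt reads), or left out each library in turn. Some items are not reported here.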

Additional observations from a re-analysis of the deposited data

How the results depend on the processing

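The calls of Ccl3, Ccl4 and Ccl24, and the count of 3 chemokines called (2 lower, 1 higher), were the same under all 15 alternatives. The number with an adjusted p under 0.05 (6 as reported) was 3 to 6 with single libraries left out, with 3 left without NCOA4 siRNA 2 or 3, and 4 with the replicate number as a block. The only direction among the 9 tested chemokines that turned was that of Ccl6, at -0.01 with median centring. The Ccl3 to Ccl4 difference in log2 ratio ran from -0.10 to 0.12 with single libraries left out, being 0.12 without control 1 and 0.04 without NCOA4 siRNA 3. The cause was not tested in either case.

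Of all tested genes 163 were called, 119 higher and 44 lower (73.0% higher). Median centring gave 105 and 68 (60.7%), quantile normalization 99 and 61 (61.9%), and keeping genes that average 5 TPM or more gave 29 lower. The number with an adjusted p under 0.05 was 750 as reported, 1485 with limma-voom, 499 with no filter, 404 with no trend, 161 with the replicate number as a block and 127 to 807 with single libraries left out. With single libraries left out 77 to 172 genes were called, 54 to 120 higher and 23 to 52 lower. Among the other chemokine ligands 0 were called as reported and 1, Ppbp, with a pseudocount of 1, no filter, no trend, limma-voom, or without control 1, so that leaving out libraries gave 0 to 1.

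Same-numbered libraries did not deviate together, with correlations of 0.028, -0.019 and 0.023 between their deviations from the group means over genes, so the numbers were not taken as pairs. As a block they left 87 genes called, 61 higher and 26 lower, and the adjusted p of Ccl7 and Ccl9 was 0.0875 and 0.0772. Not every library correlated best with its own number. Depth limits Cxcl16, Ccl5, Ccl26 and Ppbp, which had at most 18 reads in any library.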
